A study of Mus musculus with 6 samples.

Results

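The regions described here are p65 peaks that lay 1 to 10 kb from the nearest transcription start site (TSS) of a protein-coding gene, called 1–10-kb peaks in the following text. In each of the 3 deposited peak lists, a peak was taken when its middle was at least 1000 bp and less than 10000 bp from the nearest TSS of a curated RefSeq transcript on GRCm38 (mm10), provided that this TSS belonged to a protein-coding gene. The rule used position only, and neither the strength of a peak nor its sequence. It selected 1610 of 8525 peaks in the adult list (18.9%, 95% Wilson interval 18.1 to 19.7), 834 of 4169 in the aged/IgG control list (20%, 18.8 to 21.2) and 1166 of 6014 in the aged/anti-IL-17A/F list (19.4%, 18.4 to 20.4), which is 3610 of 18708 peaks in all.

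The study used chromatin immunoprecipitation followed by sequencing (ChIP–seq) to map p65, a subunit of the transcription factor NF-κB encoded by Rela, in trypsin-isolated epidermal cells of C57bl/6J mice. Adult mice were untreated. Aged mice had received intraperitoneal injections over 12 weeks, either of blocking antibodies to IL-17A and IL-17F (aged/anti-IL-17A/F, in the text the anti-IL-17A/F list) or of a control IgG (aged/IgG control, in the text the IgG list), from an age of 73 weeks. Reads of 4 mice per condition were merged before peaks were called, so each condition is 1 list without replicates, no difference between conditions can be tested, and the intervals stand for counting error alone. The labels give 3 ChIP samples and 3 inputs, the inputs were not analysed here, and whether they entered the peak calling is not stated. The number of reads behind a peak is unknown, since the lists hold none.

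All 8525 peaks of the list labelled adult carry names that begin with the word Treated, as do those of the anti-IL-17A/F list, which goes against the adult label. The labels were kept, and the overlap shares are also given with these 2 lists exchanged. Peak lists hold no expression, so the labelled cell type could not be checked by expression. Among marker genes, 4 of 8 keratinocyte markers (Krt1, Krt5, Krt10 and Trp63) had a 1–10-kb peak in the adult list and 3 of 8 in each aged list, beside 6.25%, 3.54% and 4.75% of all protein-coding genes in the adult, IgG and anti-IL-17A/F lists. None of 5 T cell, 3 melanocyte or 3 fibroblast markers had one in any list, which at these shares does not tell them from other genes, and of 3 Langerhans cell markers 1, Epcam, had one in the adult list.

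NF-κB dimers that contain p65 are held in the cytoplasm by IκB proteins and enter the nucleus when receptors for cytokines such as TNF, IL-1 or IL-17 are engaged. They bind κB sites, which are short G- and C-flanked sequences, both at promoters and at enhancers, and many of their best known targets, such as Nfkbia and Tnfaip3, encode proteins that switch the pathway off again. The interval from 1 to 10 kb around a TSS holds first introns and the upstream flank of a gene, where enhancers of inflammatory genes are often found. The epidermis is a stratified epithelium in which NF-κB activity is tied to barrier repair and defense. The gene assigned to a peak here is the nearest one, and whether the peak acts on it was not tested.

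The sequences at the strongest 1–10-kb peaks and at peaks beside genes of the NF-κB pathway are printed first, since most of the comparisons turn on the κB site. Each is read from the plus strand of GRCm38, and the capitals mark matches to the NF-κB consensus on either strand nearest to the summit in the adult list, with overlapping matches run together.
Stim2 (chr5:53995372-53995411): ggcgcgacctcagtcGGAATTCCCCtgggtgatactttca
Kcnn1 (chr8:70865860-70865899): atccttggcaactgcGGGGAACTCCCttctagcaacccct
Chd2 (chr7:73537755-73537794): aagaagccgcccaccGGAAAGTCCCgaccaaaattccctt
Mmrn2 (chr14:34379169-34379208): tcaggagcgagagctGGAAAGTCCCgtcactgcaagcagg
Jmjd4 (chr11:59459279-59459318): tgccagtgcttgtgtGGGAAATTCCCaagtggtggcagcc
Tnip1 (chr11:54956102-54956131): cacgcccctgGGAAAGTCCCcggagaccga
Bcl3 (chr7:19824341-19824380): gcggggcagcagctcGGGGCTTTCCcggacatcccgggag
Zc3h12a (chr4:125122587-125122626): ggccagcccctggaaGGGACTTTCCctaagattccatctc
Tnf (chr17:35199152-35199191): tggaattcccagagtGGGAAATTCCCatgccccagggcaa
Cxcl16 (chr11:70467974-70468013): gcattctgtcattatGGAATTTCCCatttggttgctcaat
The next group is taken around the summit in an aged list, in which these peaks were strongest or found alone.
Nfkbia (chr12:55495340-55495379): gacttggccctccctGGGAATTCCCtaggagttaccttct
Tnfaip3 (chr10:19009416-19009455): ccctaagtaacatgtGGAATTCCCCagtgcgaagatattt
Elf3 (chr1:135248544-135248583): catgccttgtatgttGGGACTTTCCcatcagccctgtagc
Nfkbie (chr17:45557575-45557614): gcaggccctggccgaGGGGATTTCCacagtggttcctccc
Sp6 (chr11:97009733-97009772): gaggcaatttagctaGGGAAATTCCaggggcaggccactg
Spint2 (chr7:29276876-29276915): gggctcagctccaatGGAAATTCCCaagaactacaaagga
The peak downstream of Junb held 3 matches close together, which are the capitals in the 241 bases around its summit in the IgG list.
Junb (chr8:84976369-84976609): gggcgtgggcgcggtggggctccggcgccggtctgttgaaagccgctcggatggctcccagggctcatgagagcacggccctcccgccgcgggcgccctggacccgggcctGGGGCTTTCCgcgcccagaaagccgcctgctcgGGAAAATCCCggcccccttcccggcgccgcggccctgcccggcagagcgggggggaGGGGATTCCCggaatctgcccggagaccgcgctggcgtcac
The windows of Nfkbie, Sp6 and Spint2 belonged to peaks found in the anti-IL-17A/F list alone, and all others printed here to peaks found in every list.

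The 1–10-kb peaks were split almost evenly around the TSS. Upstream of the nearest TSS lay 768 of 1610 peaks in the adult list (47.7%, 45.3 to 50.1), 409 of 834 in the IgG list (49.0%, 45.7 to 52.4) and 557 of 1166 in the anti-IL-17A/F list (47.8%, 44.9 to 50.6). Of all genome positions that satisfy the same rule, 46.2% were upstream, so the share of peaks upstream was within 3 percentage points of the share of sequence. The positions themselves make up 11.9% of the genome, against 18.9 to 20% of the peaks.

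Within the interval, peaks gathered toward its inner edge on both sides. The first kilobase, 1 to 2 kb from the TSS, held 21.1% of the peaks in the adult list (339 of 1610), 19.7% in the IgG list (164 of 834) and 20.5% in the anti-IL-17A/F list (239 of 1166), against 13.0% of the genome positions of the class. From 1 to 3 kb the shares were 37.9%, 37.2% and 37% against 25.4% of positions. Beyond 4 kb on the downstream side, each 1-kb bin held 3.26 to 4.89% of the peaks in the 3 lists, below the 5.16 to 6.19% of positions there. The 3 lists followed the same profile.

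**Figure D1:**
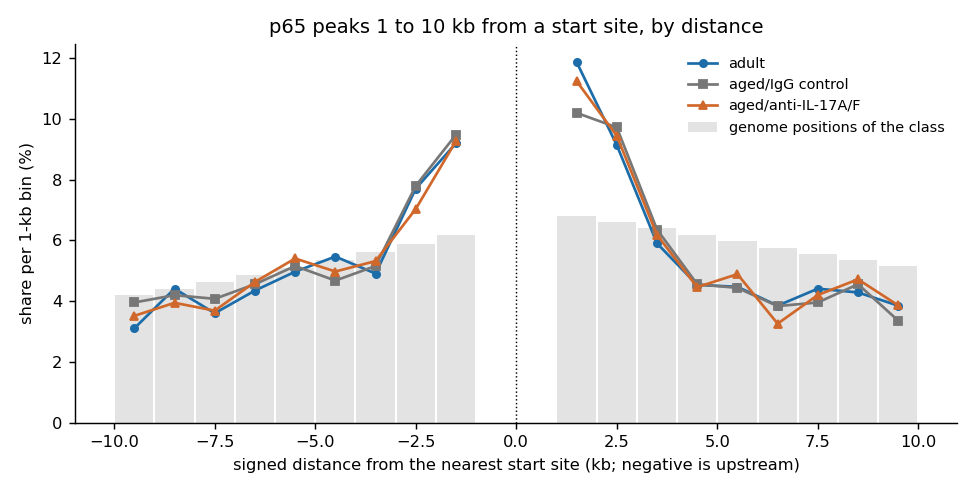
Share of the 1–10-kb peaks of each list in bins of 1 kb (y axis, percent) against signed distance from the nearest TSS (x axis, kb, negative upstream); gray bars give the share of genome positions that satisfy the same rule. In all 3 lists the bins from 1 to 3 kb on either side stood above the gray bars, with 9.19 to 11.9% of adult peaks in the bins at 1 to 2 kb.

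By annotation, the peaks were divided between introns and intergenic sequence. The middle of the peak lay in an intron in 49.9% of adult peaks (804 of 1610), 47.7% of IgG peaks (398 of 834) and 49.9% of anti-IL-17A/F peaks (582 of 1166), and in intergenic sequence in 45.2%, 47% and 45.1%. Coding exons held 2.86%, 2.64% and 2.40%, and 3′ untranslated regions 1.24%, 1.92% and 1.46%. In 49.8%, 47.4% and 49.1% of peaks the middle was inside the gene to which the peak was assigned, and in 4.97%, 5.64% and 5.75% inside other genes only. An example is the peak assigned to Ccl27a, a chemokine of keratinocytes, for which the middle of the peak lay in an exon of Il11ra1.

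The peaks at the edges of the interval show what the bounds did. In the adult list the peaks closest to the lower bound were at 996 bp from Baz1a (fold enrichment 7.14, outside) and at 1002 bp from Olfr433 (2.98, inside), and those closest to the upper bound at 9993 bp from Fam83f (3.89, inside) and 10008 bp from Wbp1l (6.38, outside). In the anti-IL-17A/F list the first peak inside was the one at Baz1a, at 1001 bp (3.18), and in the IgG list it was at Nck2, at 1004 bp (3.2). A site could therefore be inside the interval in one list and outside it in another. This was rare, since 98.6 to 99.2% of the overlapping peaks of 1–10-kb peaks in another list also satisfied the rule.

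Fold enrichment is the authors' ratio of the signal at the summit to the local background. Its median over the 1–10-kb peaks was 3.74 in the adult list (quartiles 3.05 and 5.10), 3.90 in the IgG list and 3.81 in the anti-IL-17A/F list. Promoter peaks, with their middle under 1 kb from a TSS, had medians of 3.34, 3.60 and 3.41. The upstream and the downstream side had similar strength, with adult medians of 3.67 and 3.77.

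The strongest peak of the adult list in the interval lay in Tnip1, which encodes an A20-binding inhibitor of NF-κB. It was 6867 bp downstream of the nearest TSS, in an exon that is 5′ untranslated sequence of other Tnip1 transcripts, with a fold enrichment of 22.6 in the adult, 17 in the IgG and 14.1 in the anti-IL-17A/F list. The peak in an intron of Chd2, a chromatin remodeler, had 21.6, 15.9 and 16.2. That beyond the 3′ end of Junb, an AP-1 transcription factor, had 19.7, 18.8 and 14.5. Each of these peaks was highest in the adult list, and the aged lists did not keep one order.

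The other leading downstream peaks were assigned to Jmjd4 (19.3, 10.6 and 12.6 in the adult, IgG and anti-IL-17A/F lists), Mmrn2 (17.6, 17.6 and 16.1), Gas2l1 (16.4, 15.2 and 12.8) and Bok (12.7, 11.1 and 13.6). Bok is a member of the BCL2 family, and neither its peak nor that of Gas2l1 held an NF-κB consensus match within 100 bp of the summit. The leading upstream peak of the adult and IgG lists was at Stim2, a calcium sensor of the endoplasmic reticulum, 3071 bp from the TSS, with 19.5, 14.1 and 11.4, whereas Kcnn1 led in the anti-IL-17A/F list. Bcl3, an atypical IκB protein, had its strongest peak 1630 bp upstream, with 14.9, 10.5 and 11.7. Nfkbia, which encodes IκBα, had one 2666 bp upstream with 12.2, 12.4 and 10.4.

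Further upstream peaks of the leading group were assigned to Kcnn1 (16.6, 12.6 and 14), Zfp36l1 (15, 11.2 and 10.6), Cacna2d4 (14.8, 11.1 and 13.2), Lmna (11.2, 6.84 and 12.8) and Rnf114 (10.9, 12.2 and 11.4). Zfp36l1 binds AU-rich elements of messenger RNAs. The peak of Rnf114 lay in an intron of Spata2. These 15 leading peaks, each among the 5 strongest on its side in at least 1 list, were present in every list, and 11 were highest in the adult list, 2 in the IgG list and 2 in the anti-IL-17A/F list.

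**Figure D2:**
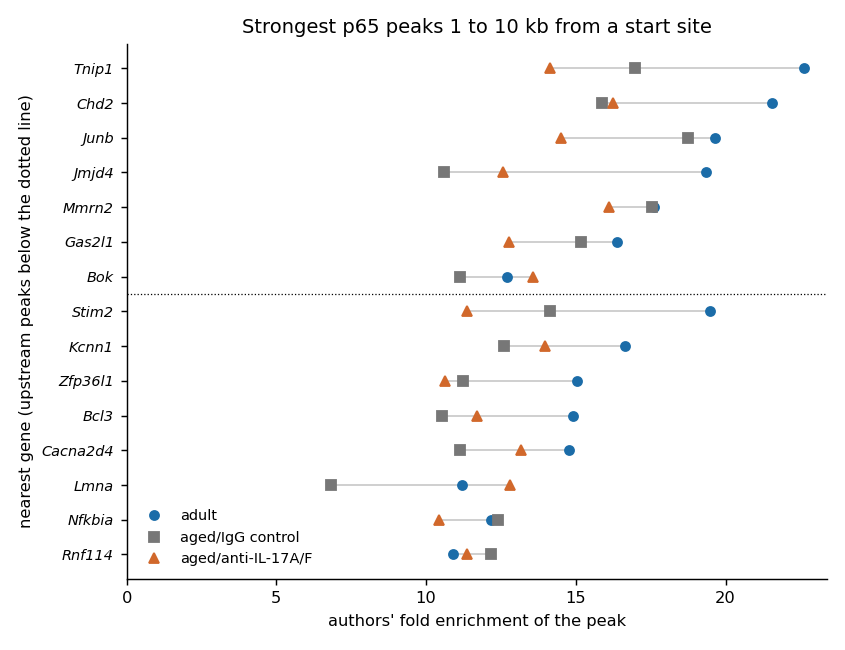
Fold enrichment given by the authors (x axis) for 15 of the strongest 1–10-kb peaks (y axis, by nearest gene), 8 upstream and 7 downstream of the TSS; circles are the adult, squares the IgG and triangles the anti-IL-17A/F list. The adult value was the highest for 11 peaks, and the widest gap between lists was at Jmjd4, from 10.6 to 19.3.

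The order of the lists was not particular to this interval. Of 711 adult 1–10-kb peaks that overlapped a peak in both other lists, 451 (63.4%) had their highest fold enrichment in the adult list, 84 (11.8%) in the IgG list and 176 (24.8%) in the anti-IL-17A/F list. Promoter peaks gave 63.9%, 10.3% and 25.8%. The median values of the 1–10-kb peaks were 5.26, 4.15 and 4.64. Fold enrichment depends on the efficiency of each immunoprecipitation, which cannot be told apart from the condition with 1 list each.

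The NF-κB consensus, searched on either strand up to 100 bp from the summit, was found in 514 of 1610 adult 1–10-kb peaks (31.9%, 29.7 to 34.2), in 337 of 834 IgG peaks (40.4%, 37.1 to 43.8) and in 449 of 1166 anti-IL-17A/F peaks (38.5%, 35.8 to 41.3). Over all peaks of the lists the shares were 28.5%, 37.8% and 34.9%. The lists came in another order with the 4169 strongest peaks of each, in which the 1–10-kb peaks held it in 43.7%, 40.4% and 45.2%, and at −log10 q of at least 10, with 38.5%, 44% and 45.1%. In flanking windows of equal width, placed 2000 bp to the left and right of the 1–10-kb summits, the share was 2.83%, 2.28% and 3.39%, and in 201-bp windows at 21237 RefSeq promoters of GRCm38 it was 3.33%. Where a match was present, its median distance from the summit was 23.5, 24.5 and 22.5 bp. Upstream and downstream peaks carried it about equally often, with a difference of −2.04 percentage points in the adult list (−6.57 to 2.52).

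In the lists as deposited, the 1–10-kb peaks carried the NF-κB consensus more often than promoter peaks. Promoter peaks held it in 22.2% (651 of 2934), 32.0% and 27.4%, which left differences of 9.74 percentage points in the adult (95% Newcombe interval 7.03 to 12.5), 8.44 in the IgG (4.24 to 12.6) and 11.1 in the anti-IL-17A/F list (7.64 to 14.5). Promoter peaks were also weaker, and averaged within quartile groups of fold enrichment the differences were 6.33, 5.57 and 7.27. Between single groups the difference ran from 1.06 to 12.1, from −0.30 to 15.3 and from −1.21 to 15.3, so in each aged list at least 1 group showed no excess. Among peaks with −log10 q of at least 10, the IgG difference was 2.51 (−2.67 to 7.69), with an interval that includes 0. From peaks at 10 kb or more the 1–10-kb peaks differed by 0.08, 0.05 and 0.06 percentage points, with intervals that reached from −2.75 to 2.96 in the adult list, from −4.11 to 4.24 in the IgG list and from −3.40 to 3.56 in the anti-IL-17A/F list. With a stricter form of the consensus the differences from these farther peaks were −1.75 (−3.41 to −0.01), −1.02 (−3.72 to 1.84) and −2.22 (−4.38 to 0.06), so that the adult interval lay just below 0.

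Other motifs separated the same classes. The AP-1 form TGANTCA, bound by FOS and JUN dimers, was found in 16.6%, 17.4% and 17.3% of the 1–10-kb peaks in the adult, IgG and anti-IL-17A/F lists, in 4.74%, 5.35% and 5.58% of promoter peaks and in 5.20% of RefSeq promoters. The differences from promoter peaks were 11.8 (9.92 to 13.9), 12 (9.25 to 15) and 11.7 percentage points (9.39 to 14.2). The GC box GGGCGG of Sp proteins went the other way, with 16.1%, 14% and 15.5% of 1–10-kb peaks against 51%, 48.3% and 48.6% of promoter peaks and 32.2% of RefSeq promoters. It remained above the 9.46%, 9.26% and 8.20% of peaks at 10 kb or more, by 6.69 percentage points in the adult list (4.63 to 8.84).

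Epidermal and stress-related motifs were rarer. The grainyhead-like form AACCNGTT was present in 5.28%, 6.12% and 4.29% of 1–10-kb peaks, against 1.87%, 2.20% and 2.02% of promoter peaks and 1.47% of RefSeq promoters. The C/EBP form TTGCNNAA was present in 9.50%, 9.59% and 10.2%, against 5.59%, 5.43% and 5.42% of promoter peaks and 7.92% of RefSeq promoters. It was more frequent still in peaks at 10 kb or more (13.6%, 12.4% and 12.7%), from which the 1–10-kb peaks differed by −4.14 (−6.02 to −2.18), −2.78 (−5.33 to −0.07) and −2.45 percentage points (−4.65 to −0.14). Matches to different motifs may share letters. Base composition moved with these classes, and its part in the differences was not tested. The mean GC content of the 201-bp windows was 53.6% ± 7.29 (SD over 1610 peaks) in the adult 1–10-kb peaks and 63.9% ± 8.86 in the adult promoter peaks.

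**Figure D3:**
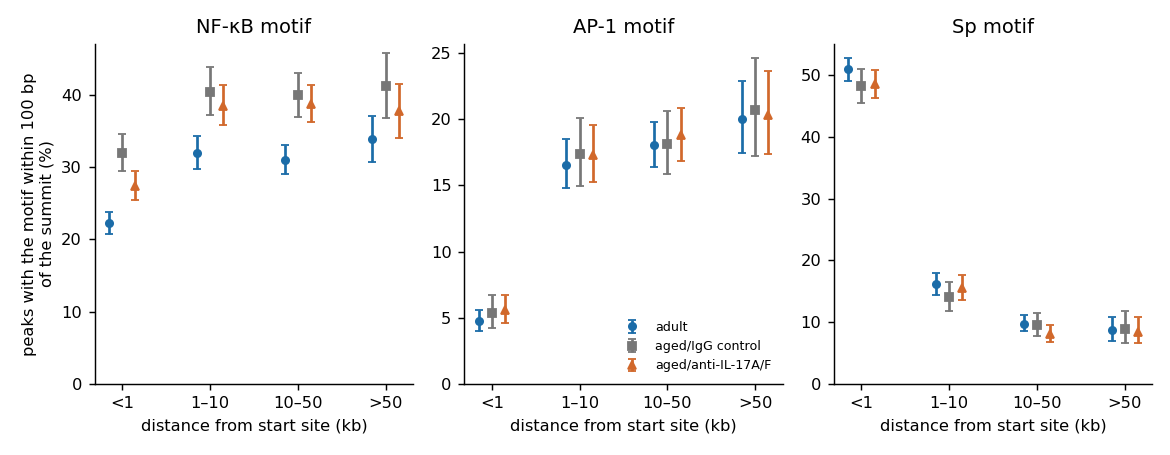
Share of peaks with each motif within 100 bp of the summit (y axis, percent, with 95% Wilson intervals) by distance of the peak from the nearest protein-coding TSS (x axis, kb) in the 3 lists. The 1–10-kb peaks had shares close to those of the farther peaks in the NF-κB panel (31.9 to 40.4%) and the AP-1 panel (16.6 to 17.4%), and lay between promoter and far peaks in the Sp panel.

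Inside the interval, the Sp share fell with distance while the NF-κB share changed little. From 1 to 2, 2 to 5 and 5 to 10 kb the adult peaks held GGGCGG in 21.5%, 16.8% and 12.8%, with 95% intervals of 17.5 to 26.2 and 10.5 to 15.5 for the first and last. They held the NF-κB consensus in 29.8%, 34.7% and 30.5%. In the IgG list the NF-κB shares were 40.2%, 41.4% and 39.6%, and in the anti-IL-17A/F list 38.9%, 39.4% and 37.5%. The AP-1 form was present in 13.9%, 12.8% and 12.1% of peaks at 1 to 2 kb and in 17%, 19.7% and 18.9% at 5 to 10 kb in the 3 lists, with overlapping intervals in each.

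The NF-κB share rose with the strength of the peak, and the AP-1 share showed no steady rise. When the 1–10-kb peaks of each list were divided into quartile groups of fold enrichment, the NF-κB consensus rose from 15.1% in the weakest group through 22.9% and 37.2% to 52.5% in the strongest in the adult list. It went from 31.1% through 32.2% and 39.2% to 59.1% in the IgG list and from 19.5% through 35.1% and 43.2% to 56.4% in the anti-IL-17A/F list. The AP-1 form went from 17.9% through 12.9% and 16.4% to 19.2% in the adult list. It went from 14.4% through 17.3% and 20.1% to 17.8% in the IgG list and from 18.2% through 15.8% and 16.1% to 19.2% in the anti-IL-17A/F list. The most frequent single sequence among the matches was GGGACTTTCC, found in 46 adult, 34 IgG and 42 anti-IL-17A/F peaks, followed in the adult list by GGGGATTTCC in 39.

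The overlap between lists followed the sizes of the lists. Of the adult 1–10-kb peaks, 777 (48.3%) overlapped a peak of the IgG list by at least 1 bp, against 45.5% of all adult peaks, and 1011 (62.8%) overlapped a peak of the anti-IL-17A/F list, against 60.4%. Of the IgG peaks, 776 (93.0%) overlapped a peak of the adult list, against 93.3% of all, and 734 (88.0%) one of the anti-IL-17A/F list, against 86.6%. Of the anti-IL-17A/F peaks, 1005 (86.2%) overlapped an adult peak, against 85.6% of all, and 731 (62.7%) an IgG peak, against 59.9%. Each share was within 3 percentage points of that of the whole list. Were the adult list and the list of anti-IL-17A/F to change places, 62.7% in place of 48.3% of adult peaks would be found in the IgG list.

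When each list was reduced to its 4169 strongest peaks, the 6 shares came to lie between 73.6 and 76.9%. With equal sizes, 76.6% of IgG peaks overlapped an adult peak and 73.6% of adult peaks an IgG peak. In the deposited lists these shares were 93.0% and 48.3%. The gap thus narrowed without changing direction, and equal list sizes bring the shares of a pair close together by construction. Overlap also rose with strength in every direction. For adult peaks in the IgG list it was 13.6%, 26.9%, 57.6% and 95% from the weakest to the strongest group, and for adult peaks in the anti-IL-17A/F list 30%, 47%, 75.2% and 99.0%. For IgG peaks in the adult list it was 83.7%, 90.4%, 98.1% and 100%.

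**Figure D4:**
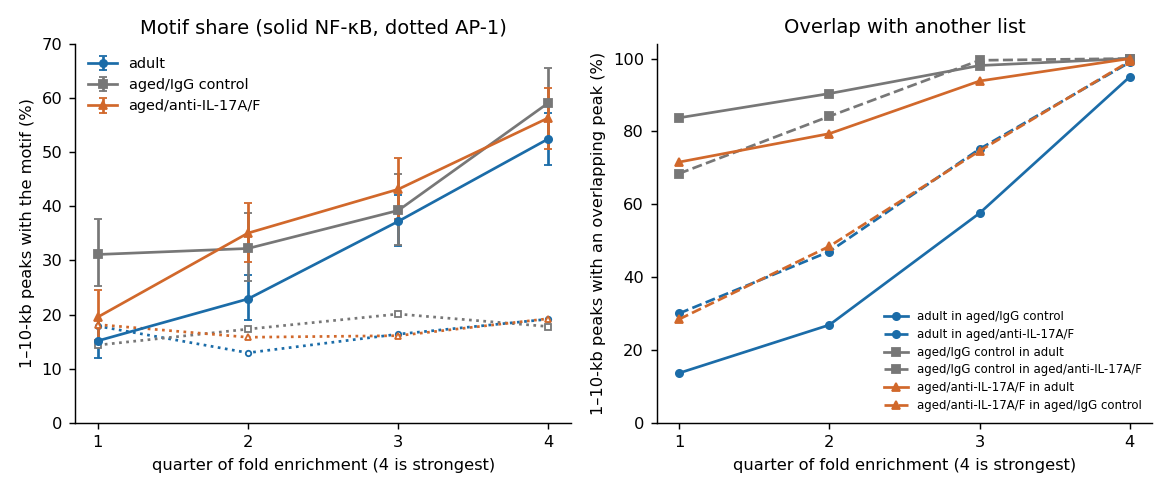
Left, share of 1–10-kb peaks with the NF-κB consensus (solid, with 95% Wilson intervals) and the AP-1 form (dotted) by quartile group of fold enrichment within each list; right, share that overlapped a peak of another list. Both the NF-κB share and the overlap rose from the weakest to the strongest group, to 52.5 to 59.1% and to 95 to 100%.

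Merged across the lists, the 1–10-kb peaks formed 1809 regions. All 3 lists had a peak in 717 of them (39.6%, 37.4 to 41.9), the adult list alone in 533 (29.5%), the adult and anti-IL-17A/F lists in 296, the anti-IL-17A/F list alone in 139, the adult and IgG lists in 65, the IgG list alone in 36 and both aged lists without the adult in 23. In the lists of equal size, the regions found in 1 list alone numbered 140, 124 and 130 for the adult, IgG and anti-IL-17A/F lists, and 571 of 1195 regions (47.8%) were in all 3. Regions found in 1 list alone were weak, with a median fold enrichment of 3.07, 3.11 and 3.08 against 5.61 for the highest value in regions of all 3 lists.

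The NF-κB share also differed between these groups of regions. It was 45.7% (42.1 to 49.4) in regions of all 3 lists, 52.2% (33.0 to 70.8) in the 23 of both aged lists without the adult, 30.7% in those of the adult and anti-IL-17A/F lists, 27.7% in those of the adult and IgG lists, 18.8% (15.7 to 22.3) in those of the adult list alone, 19.4% in the 36 of the IgG list alone and 33.8% (26.5 to 42) in those of the anti-IL-17A/F list alone. A region was counted as holding the consensus when any of its peaks held it near the summit. Regions of several lists were thus searched around more summits than regions of a single list, which by itself can raise their share. How much of the contrast between shared and single-list regions came from this was not tested. In the deposited lists, the share in regions of the anti-IL-17A/F list alone was above that in regions of the adult list alone by 15.1 percentage points (6.91 to 23.8). With lists of equal size the difference was 6.81 (−4.27 to 17.7), with an interval that includes 0. Among regions with a fold enrichment of 2.5 to 3.5 it was 8.55 (−0.45 to 19.1), and this interval also includes 0, whereas at −log10 q of at least 10 it was 14.9 (4.28 to 26.1).

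**Figure D5:**
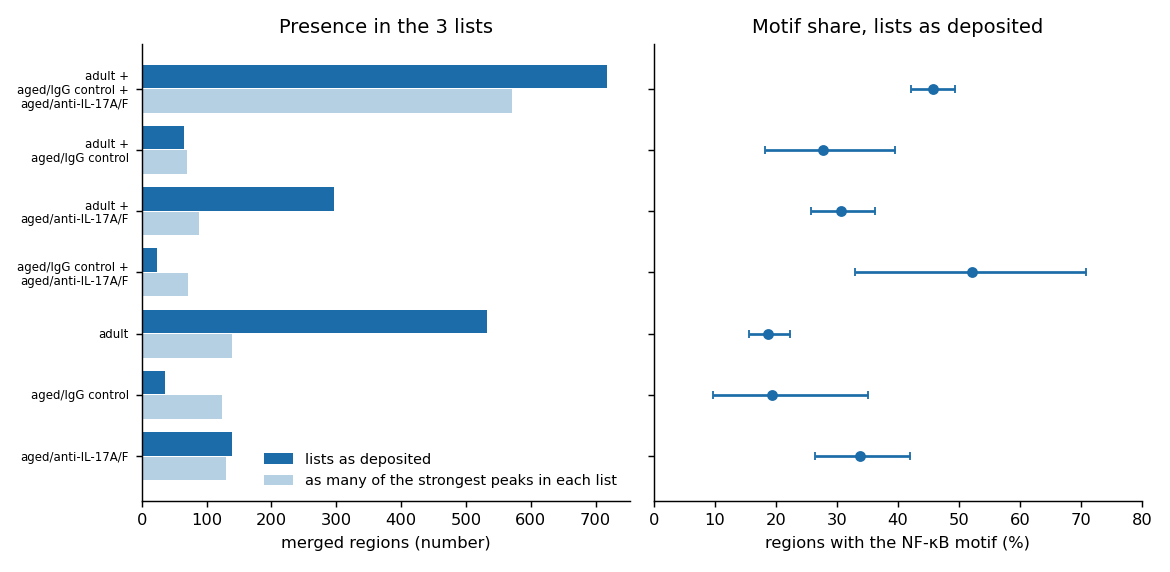
Left, number of merged 1–10-kb regions by the lists in which they had a peak, for the lists as deposited and for lists of equal size; right, share of the regions of each group with the NF-κB consensus in the deposited lists, with 95% Wilson intervals. Regions of the adult list alone fell from 533 to 140 with lists of equal size, while those of the IgG list alone rose from 36 to 124. A region was counted as holding the consensus when any of its peaks did, so regions of several lists were searched around more summits.

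Named by strength, the regions of the adult list alone were led by Bmf, a BH3-only promoter of apoptosis, with a fold enrichment of 5.71 at 4931 bp upstream, followed by Mettl17 (5.18), Trim69 (5.06), Pik3r2 (5.06) and Msl1 (4.87). Of these 5 peaks, those of Trim69 and Pik3r2 held the NF-κB consensus. The nearest peak of another list to that of Bmf was 65658 bp away. The IgG list alone was led by Il17re, a receptor subunit for IL-17C, with 3.68 at 7202 bp upstream, then Acpp (3.62), Sytl1 (3.60), Ptprs (3.55) and Tmem159 (3.55). None of the 5 IgG peaks held the consensus. The anti-IL-17A/F list alone was led by Spint2, a serine protease inhibitor (4.32), Bahd1 (4.29), Nfkbie (4.19), Sp6 (4.06) and Wdtc1 (4.06), all of which held it.

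Peaks in exactly 2 lists were led by Psg25 (5.62 and 3.48), Prdm10 (5.18 and 3.78) and 4930578I06Rik (4.99 and 3.27) for the adult and IgG lists. For the adult and anti-IL-17A/F lists they were led by Myod1 (6.17 and 3.88), Sec14l4 (6.08 and 4.64) and Soga1 (6.03 and 4.65), and for both aged lists by Fam53b (4.53 and 4.38), Zfpm1 (3.98 and 4.45) and Pde4b (2.91 and 4.4). For 3 genes named by the study there was a 1–10-kb peak in a single list, and it was weak. That of Il9 (3.06, 5240 bp downstream) and that of Crlf2, a receptor subunit for thymic stromal lymphopoietin (2.66, 1175 bp downstream), were in the IgG list, and that of Dll1, a Notch ligand (2.34, 3551 bp upstream), was in the adult list. They stood above 20.2%, 6.88% and 3.06% of the peaks of their lists in fold enrichment, and none held the NF-κB consensus.

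The 1–10-kb peaks were assigned to 1312 genes in the adult list, 744 in the IgG list and 997 in the anti-IL-17A/F list, which is 6.25%, 3.54% and 4.75% of 21000 protein-coding genes. In all 3 lists 637 of 1464 genes had one. Genes with a 1–10-kb peak in the adult list alone numbered 378, of which 237 had no peak at any distance in the other lists. The corresponding numbers were 29 and 19 for the IgG list and 105 and 54 for the anti-IL-17A/F list. A promoter peak accompanied the 1–10-kb peak in 433 of the adult genes (33.0%), 142 of the IgG genes (19.1%) and 242 of the anti-IL-17A/F genes (24.3%), beside 13.2%, 5.86% and 8.54% of all protein-coding genes.

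Several peaks within the interval belonged to 1 gene in 223 of the adult, 72 of the IgG and 127 of the anti-IL-17A/F genes. Most adult peaks were at Tnip1 and Ahnak, with 7 each, followed by Junb with 6 and Ier2 and Kdm6b with 5 each. In the IgG list these genes had 3, 3, 3, 4 and 3, and in the anti-IL-17A/F list 5, 4, 4, 4 and 3. At Tnip1 the adult peaks ran from 9537 bp upstream to 8765 bp downstream, and the peaks at 4317 and 1287 bp downstream had a fold enrichment of 12.7 and 6.46, against 7.06 and 2.79 in the IgG list and 7.74 and 4.60 in the anti-IL-17A/F list. The 2 adult peaks upstream of Tnip1 were found in the adult list alone, at 3.03 and 3.81. Both Junb and Ier2 are immediate early genes, and Kdm6b encodes a histone H3 lysine demethylase.

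Genes of the NF-κB pathway were counted in lists compiled with earlier results of these data known, so their counts are a description. Values in parentheses are fold enrichments in the adult, IgG and anti-IL-17A/F lists in this order, for the strongest 1–10-kb peak of the gene in each list, which need not be the same site. Of 11 genes for NF-κB subunits and IκB inhibitors, 3 had a 1–10-kb peak in the adult list, 3 in the IgG list and 4 in the anti-IL-17A/F list, beside 6.25%, 3.54% and 4.75% of all protein-coding genes. Bcl3, Nfkbia and Relb had one in every list, Relb at 3.61, 3.62 and 4.33, whereas Nfkbie, which encodes IκBε, had one in the anti-IL-17A/F list only (4.19, 1909 bp downstream). The nearest peaks of the adult and IgG lists were 1440 and 1522 bp from it. Nfkbia had 4 peaks in the adult, 3 in the IgG and 4 in the anti-IL-17A/F list, all upstream.

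Of 36 genes for ubiquitin editors, adaptors and kinases of the pathway, 9, 7 and 8 had a 1–10-kb peak. In every list this held for Tnip1, for Tnfaip3, which encodes the deubiquitinase A20 (9.15, 7.55 and 10.9), for Zc3h12a, which encodes the ribonuclease regnase-1 (9.74, 7.69 and 8.58 at its strongest peak in each list), for Sqstm1 (6.84, 5.34 and 5.40) and for Traf2 (4.05, 4.67 and 5.85). Traf3 (3.98) and Ikbkb (3.21), the gene for the kinase IKKβ, had one in the anti-IL-17A/F list alone. Outside the interval, Traf3 also had 1 peak in the adult and 1 in the IgG list. Of 28 genes for IL-17 receptors, adaptors and targets, 1, 2 and 1 had one (3.57%, 7.14% and 3.57%), near the 6.25%, 3.54% and 4.75% of all protein-coding genes. These were Zc3h12a in every list and Il17re in the IgG list.

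Beside the counts of this and the following gene lists stand the 6.25%, 3.54% and 4.75% of all protein-coding genes with a 1–10-kb peak. Among 72 genes for cytokines and their receptors, 13, 11 and 10 had one (18.1%, 15.3% and 13.9%), and 7 had one in every list. The strongest of these were Ifngr1, a subunit of the interferon-γ receptor (8.38, 7.04 and 6.98), Tnf (7.52, 6.60 and 7.11, downstream of the whole gene) and Il4ra, a receptor subunit for IL-4 and IL-13 (6.14, 5.19 and 5.86). Osmr, the oncostatin M receptor, had 5.69, 4.48 and 3.14. Il1r1 (4.0), Il15ra (3.74) and Ifngr2 (3.32) had one in the adult list alone, Il12rb2 (3.09), Il9 and Crlf2 in the IgG list alone and Ifnar2 (2.57) in the anti-IL-17A/F list alone. Outside the interval, Il1r1 had 1 peak in the IgG list and Ifngr2 had 1 in each aged list. Il12rb2 likewise had 1 in the adult list and Ifnar2 had 1 in the IgG list.

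Chemokines and their receptors had 8, 4 and 8 of 55 (14.5%, 7.27% and 14.5%). Cxcl16 had the strongest (12.3, 8.80 and 11), 7992 bp upstream. The atypical receptor gene Ackr4 (6.73, 5.25 and 5.67), Ccl27a (5.69, 4.12 and 5.15) and Cxcl10, an interferon-inducible chemokine (4.92, 4.48 and 4.87), also had one in every list. Ccl28 had one in the anti-IL-17A/F list alone, at 3.79, and Ccl6 in the adult list alone, at 2.80.

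The AP-1 family had the highest share of the 12 gene lists in each condition, with 10, 7 and 9 of 19 genes. These were 52.6% (31.7 to 72.7), 36.8% (19.1 to 59) and 47.4% (27.3 to 68.3), beside 6.25%, 3.54% and 4.75% of all protein-coding genes. The intervals overlapped those of the epidermal transcription factors, at 42.2% (29 to 56.7), 31.1% (19.5 to 45.7) and 35.6% (23.2 to 50.2), so the ranking is not resolved. Beside Junb, peaks in every list were assigned to Fosl2 (6.59, 4.52 and 5.76), Fosb (6.49, 3.47 and 4.5), Atf3 (4.66, 3.91 and 4.77), Jund (4.36, 3.48 and 3.23), Maff (3.8, 3.48 and 3.95) and Jun (3.05, 2.67 and 2.92). Fos had 2 peaks each in the adult and anti-IL-17A/F lists and none in the IgG list, in which it had 3 peaks outside the interval.

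Of the epidermal transcription factors, 19, 14 and 16 of 45 had a 1–10-kb peak (42.2%, 31.1% and 35.6%). Elf3, an ETS factor of epithelia, kept nearly the same value in the 3 lists (11.3, 11.1 and 11.3), as did Tcf7l1 (10.5, 10.4 and 11.2), followed by Tfap2b (8.46, 6.75 and 7.01). Trp63, which encodes the p63 protein that maintains basal keratinocytes, had a peak 3862 bp upstream (5.69, 4.07 and 5.81). Hopx (7.97, 6.54 and 5.34), Cebpa (6.71, 5.10 and 5.90) and Grhl3 (5.52, 3.64 and 4.60) also had one in every list. Klf4, a factor of suprabasal differentiation, had 11 peaks in all in the adult list but only 1 of them within the interval (2.53).

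Genes for keratins, junctions and adhesion had 18, 10 and 11 of 51 (35.3%, 19.6% and 21.6%), and genes for the cornified envelope and differentiation 15, 9 and 10 of 51 (29.4%, 17.6% and 19.6%). Among the former, Plec, which encodes the linker protein plectin (5.06, 3.34 and 3.95), and Pkp1, a gene of desmosomal plakophilin (4.71, 4.90 and 4.19), had one in every list. Of the latter, Krt1 (6.00, 3.74 and 4.5), Krtdap (5.74, 4.24 and 4.13) and Alox12b (5.57, 2.10 and 4.14) had one in every list. Among genes with one in the adult list alone, the strongest were Lama3 (4.51) and Cldn4 (3.89) of the former and Smpd1 (3.33) of the latter. Outside the interval, Lama3 had 1 peak in the anti-IL-17A/F list and Cldn4 had 2 in each aged list.

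Notch, epidermal growth factor receptor and hedgehog genes had 12, 7 and 10 of 42 (28.6%, 16.7% and 23.8%). Hbegf (8.56, 4.78 and 6.82) was the strongest in the adult and anti-IL-17A/F lists and Maml2, a Notch coactivator (6.03, 5.47 and 5.91), in the IgG list, and Rbpj, the DNA-binding partner of Notch, had 6.33, 3.91 and 4.81. Survival and apoptosis genes had 7, 5 and 6 of 35 (20%, 14.3% and 17.1%), with Bbc3 (6.26, 3.67 and 4.54) the strongest in the adult list and Traf2, given above, in both aged lists. Oxidative stress genes had 5, 4 and 6 of 31 (16.1%, 12.9% and 19.4%), led in every list by Gpx4, which reduces lipid peroxides (9.41, 9.84 and 8.10). Sod2 had 6.59, 3.77 and 4.67.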

How the data were processed

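p65 ChIP–seq was measured in epidermal cells of 3 conditions, with 1 deposited narrowPeak list per condition, and the 3 inputs were not used. In the authors' description, reads were trimmed with Trimmomatic (version 0.36 in the submitters' processing notes), aligned to mm10, merged over 4 mice per condition and downsampled, and peaks were called with MACS2, so the variation between animals is lost and read depth per peak is unknown. The deposited lists give for each peak the fold enrichment as a ratio to local background, a score, −log10 values of p and q (p-value and q-value), and the position with its summit. Downsampling evens the number of reads but not the efficiency of the immunoprecipitation.

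From these, each peak was assigned to the nearest TSS among 31601 start sites of curated RefSeq transcripts of GRCm38.p6, from the middle of the peak. Consensus matches on either strand were counted up to 100 bp from the summit, with the gene model and sequence of the same assembly. Peaks shared at least 1 bp when called overlapping. Shares have 95% Wilson intervals and differences Newcombe intervals. Peaks are not replicates, so no p-value was computed. Alternatives were another reference point, stricter q-values, other sets of start sites, lists of equal size, other motif windows, other overlap limits and exchanged lists. The distance class and the 12 gene lists were chosen with earlier results of these data known. Named genes were those of the 5 strongest upstream and downstream 1–10-kb peaks in each list, the 5 genes with the most such peaks in the adult list, the strongest peaks found in 1 list (5 each) or exactly 2 lists (3 each), the genes named by the study, and in each gene list up to 4 with the strongest peaks and up to 6 with a peak in 1 condition only; further list members were chosen after their values were seen. Some genes that this rule names are not reported here. Overlap, nearest-TSS and motif steps were tested on simulated data. Python 3.11.15, numpy 2.4.6, pandas 2.3.3, scipy 1.17.1, pysam 0.24.0, samtools 1.23.1, bedtools 2.31.1 and matplotlib 3.10.9 were used.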

Additional observations from a re-analysis of the deposited data

How the results depend on the processing

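Of 119 alternative values for 26 results, 75 stayed within 1.5 times the count or inside the 95% interval of the reported share or difference, and 44 moved beyond it. The 75 include values that could not change. The 4169 strongest peaks are the whole IgG list, so its counts of peaks and genes, upstream share and NF-κB share stayed the same at equal size. No difference whose interval excluded 0 changed sign. The differences in NF-κB share from peaks at 10 kb or more, whose intervals include 0, changed sign in 5 alternatives. No paired analysis was possible because each condition is 1 pooled list, for which the labels give no replicate numbers, and no replicate could be left out. Depth per peak is unknown, so peaks near the calling threshold may be absent from a list with little difference in signal.

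With the 4169 strongest peaks of each list, the adult list had 863 1–10-kb peaks and 780 genes, and the NF-κB shares were 43.7% (adult) and 45.2% (anti-IL-17A/F). Overlap shares were then 73.6% and 75.8% (adult in IgG and in anti-IL-17A/F), 76.6% and 76.9% (IgG in adult and in anti-IL-17A/F), and 76.4% and 74.6% (anti-IL-17A/F in adult and in IgG). The difference in NF-κB share between regions of the anti-IL-17A/F and of the adult list alone was 6.81 percentage points (−4.27 to 17.7), and at −log10 q of at least 10 it was 14.9 (4.28 to 26.1), both alternatives chosen after seeing the data.

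In the order adult, IgG and anti-IL-17A/F, the NF-κB share was 25.2%, 31.3% and 29.9% within 50 bp of the summit, 37.2%, 46.6% and 44.9% anywhere in the peak, 7.70%, 11.6% and 9.86% with the stricter form, and 38.5%, 44% and 45.1% at −log10 q of at least 10. The difference from promoter peaks was 6.87 (adult) over whole peaks, 6.69 (adult) and 2.51 (IgG, −2.67 to 7.69) at −log10 q of at least 10, and 6.33 (adult) and 7.27 (anti-IL-17A/F) when averaged within quartile groups of fold enrichment.

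At −log10 q of at least 10, overlap was 65.2% for adult in anti-IL-17A/F, 94.6% and 90.5% for IgG in adult and in anti-IL-17A/F, and 65.7% for anti-IL-17A/F in IgG. Summits within 150 bp gave 60.2% for adult in anti-IL-17A/F, 89.7% and 85.3% for IgG in adult and in anti-IL-17A/F, and 83.1% for anti-IL-17A/F in adult. A mutual overlap of 50% gave 89% for IgG in adult and 83.4% for anti-IL-17A/F in adult. When these 2 lists, adult and anti-IL-17A/F, changed places, the 6 shares were 62.7% and 86.2% for adult in IgG and in anti-IL-17A/F, 88% and 93% for IgG in adult and in anti-IL-17A/F, and 62.8% and 48.3% for anti-IL-17A/F in adult and in IgG. The cause was not tested where no such construction shows it.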

Other observations

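Isolated 1–10-kb peaks were not always far from binding in the other lists. Of the 533 peaks found in the adult list alone, 48 had a peak of another list within 1000 bp and 246 within 10000 bp, as had 5 and 12 of 36 in the IgG list and 20 and 71 of 139 in the anti-IL-17A/F list. Among the latter, the peak of Wdtc1 lay 826 bp from an adult and 885 bp from an IgG peak. Calls with −log10 q under 5 made up 60 of 1610 adult (3.73%), 40 of 834 IgG (4.80%) and 44 of 1166 anti-IL-17A/F 1–10-kb peaks (3.77%), and those of Crlf2 (4.54) and Dll1 (4.5) were among them.

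The 5 most frequent sequences of the NF-κB consensus in adult 1–10-kb peaks were each found in 1.74 to 2.86% of them and in 0.58 to 1.36% of adult promoter peaks, where the whole consensus was found in 31.9% and 22.2%. Of these, GGGAAATTCC was at 2.11% and 0.58% and GGGGCTTTCC at 1.74% and 0.99%. At least 2 matches within 100 bp of the summit were present in 110 adult (6.83%), 81 IgG (9.71%) and 106 anti-IL-17A/F 1–10-kb peaks (9.09%), against 119 of 2934 adult promoter peaks (4.06%).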
